A study of Mus musculus with 2 samples.

Results

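A module of 38 genes for ribosome building and amino acid supply was followed in immature mouse γδ T cells. Members were taken by gene symbol, and all 38 were found among the 31053 genes counted, each with at least 1 UMI (a tag that marks 1 captured transcript molecule) in both libraries. The 25 ribosome biogenesis members are Myc and genes widely used as readouts of its activity. The name is a label for this set, since Odc1, Srm, Cad, Nme1, Eif4a1 and Ran among them serve polyamines, nucleotides, translation or transport. The 13 amino acid members encode transporters and enzymes that supply serine, glycine, glutamine, asparagine and one-carbon units. Thymic lobes came from wild-type C57BL/6 embryos at embryonic day 15 and were kept for 2 days in culture without treatment. γδ T cells bearing CD24, a surface marker of immaturity, were then sorted by TMRE, a dye that collects in mitochondria in step with their membrane potential. The bright fraction (TMREhi) and the dim fraction (TMRElo) gave 1 single-cell library each, made with a droplet kit that reads transcripts from their 5′ ends. Both groups share strain, genotype, age, culture and the CD24 gate, and how many embryos were pooled is not given in the sources used here. No test could be run on the groups, since each is a single library. Intervals in parentheses are exact 95% intervals for counting error only, and leave out variation between embryos, sorts and cells.

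Myc is a transcription factor that pairs with Max, binds the DNA motif CACGTG (an E-box) and raises the transcription of genes for cell growth. Ribosomes are assembled in the nucleolus, where small nucleolar ribonucleoproteins (snoRNPs) modify ribosomal RNA and a large set of assembly factors fold, cut and export it. In T cells and their thymic precursors, Myc is known for driving growth and division, and amino acid transporters and the serine pathway supply the protein and nucleotide synthesis that this requires.

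The E-box was looked for in promoter windows from 250 bases before to 50 bases after each transcription start, taken from RefSeq on GRCm38.p6. Windows were matched by symbol for 30 of the 38 members. CACGTG, which reads the same on both strands, lay in the windows of 5 of these 30 members (16.7%): Nme1, Ran, Eif4a1, Wdr43 and Nop2. All 5 were among the 20 matched ribosome biogenesis members (25%), and none of the 10 matched amino acid members held it. The motif was present in 8.09% of all 27025 genes with a window and in 12.9% of the 2093 genes that reached 50 CPM (UMIs scaled to a total of 1000000 for a group) in TMREhi. It lay in 12 of 53 other ribosome biogenesis genes (22.6%). A match of letters is a description of the window and not a binding site. The 4 members of these 5 with the highest ratio of high- over low-ribosomal barcodes (a comparison given below) are shown so that their E-boxes, in capitals, can be read with flanking sequence. Nme1 (nucleoside diphosphate kinase) has 2 windows on the minus strand, chr11:93968223-93968522 with the motif beginning at position -18 from the start and chr11:93967976-93968275 with the motif at -29. Ran (nuclear transport) is at chr5:129019906-129020205, plus strand, motif at -118. Eif4a1 (translation initiation helicase) is at chr11:69672374-69672673, minus strand, motif at -189. Wdr43 (small subunit assembly) is at chr17:71615965-71616264, plus strand, motif at 18 within the transcribed part. Positions count from the start, which is 1, and the base before it is -1.
Nme1 window at -18: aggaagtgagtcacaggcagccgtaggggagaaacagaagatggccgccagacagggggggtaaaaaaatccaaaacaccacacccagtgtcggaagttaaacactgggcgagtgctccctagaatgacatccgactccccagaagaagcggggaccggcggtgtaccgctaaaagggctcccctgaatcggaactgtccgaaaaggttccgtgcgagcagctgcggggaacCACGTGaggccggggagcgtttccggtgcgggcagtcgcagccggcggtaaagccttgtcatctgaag
Nme1 window at -29: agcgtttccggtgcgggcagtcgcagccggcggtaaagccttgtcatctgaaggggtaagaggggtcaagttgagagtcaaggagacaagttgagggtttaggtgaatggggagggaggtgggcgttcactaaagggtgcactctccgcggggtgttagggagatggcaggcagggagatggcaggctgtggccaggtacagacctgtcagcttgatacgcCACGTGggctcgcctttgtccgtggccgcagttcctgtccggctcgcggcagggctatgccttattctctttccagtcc
Ran: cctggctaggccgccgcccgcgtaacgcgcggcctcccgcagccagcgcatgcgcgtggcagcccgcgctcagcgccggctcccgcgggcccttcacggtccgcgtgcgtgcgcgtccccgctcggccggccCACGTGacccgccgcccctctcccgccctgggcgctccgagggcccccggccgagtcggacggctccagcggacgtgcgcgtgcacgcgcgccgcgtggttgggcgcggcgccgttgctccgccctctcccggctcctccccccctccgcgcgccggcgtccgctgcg
Eif4a1: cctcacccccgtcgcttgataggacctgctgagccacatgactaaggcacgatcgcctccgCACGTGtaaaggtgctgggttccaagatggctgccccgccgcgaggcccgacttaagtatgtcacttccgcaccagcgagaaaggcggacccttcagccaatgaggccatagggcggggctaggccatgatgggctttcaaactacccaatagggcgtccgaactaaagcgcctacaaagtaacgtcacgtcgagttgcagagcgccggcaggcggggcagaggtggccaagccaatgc
Wdr43: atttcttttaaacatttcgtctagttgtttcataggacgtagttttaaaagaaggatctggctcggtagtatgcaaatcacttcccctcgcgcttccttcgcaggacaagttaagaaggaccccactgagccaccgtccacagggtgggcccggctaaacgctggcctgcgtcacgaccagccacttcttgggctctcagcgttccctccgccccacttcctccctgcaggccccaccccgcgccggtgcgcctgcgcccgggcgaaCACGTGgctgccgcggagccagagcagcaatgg

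Levels are CPM of UMIs summed over the cells of a group. Retained cells had at least 500 genes and at most 10% mitochondrial UMIs, which left 317 TMREhi cells with 2905666 UMIs (median 7465) and 34 TMRElo cells with 105080 (median 1679). The 5 deepest TMRElo cells held 44.0% of its UMIs, and 3 UMIs there equal 28.5 CPM against 1.03 in TMREhi. No cell barcode was shared by the libraries. Constant-region and CD3 genes of γδ T cells were present in both libraries, Trdc at 319 CPM in TMREhi and 561 in TMRElo. Cd24a, which encodes the protein sorted for, had 438 UMIs in TMREhi and 0 in TMRElo, where 3 UMIs would be 28.5 CPM. Its level in TMREhi was well above that floor, so the libraries differed in this transcript although both came from the CD24 gate. Myeloid markers had 310 UMIs in TMREhi and 0 in TMRElo. The αβ lineage thymocyte markers summed to 343 and 257 CPM. Genes were compared where their mean over both groups reached 50 CPM, and a group with fewer than 3 UMIs was set at 3 when genes were counted past a fold. Whether counting used strand is not given in the sources used here, and Nop56, Dkc1, Nhp2, Rrp9, Gnl3, Slc7a5, Shmt1, Shmt2 and Mthfd1 each overlap a counted gene on the other strand.

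Ribosome biogenesis members stood higher in TMREhi than in TMRElo, and for amino acid members as a sum the call depended on the scaling. The 25 ribosome biogenesis members summed to 7635 CPM in TMREhi (22186 UMIs) and 4673 in TMRElo (491 UMIs), a ratio of 1.63 (1.49–1.79). The 13 amino acid members summed to 1037 and 961, a ratio of 1.08 (0.885–1.33) whose interval holds 1, while scaling by the median gene gave 1.24 (1.01–1.52). Of the 38 members 27 could be compared, 22 higher and 5 lower in TMREhi. At 1.5-fold, 14 were higher, where 17.9% of all 3081 genes compared were, and 2 were lower, where 35.4% of all genes were. The median log2 ratio of the 27 was 0.62, against -0.20 over all genes. The members were chosen with earlier results of these data known. Counts and medians set beside all genes, here and below, therefore describe the members and are no independent support.

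Myc itself had 298 UMIs in TMREhi, 103 CPM, and 6 UMIs in TMRElo, 57.1 CPM. Its ratio of 1.80 (0.816–4.93) cannot be told from 1 on 6 molecules. Myc lies at chr15:61985391-61990374 on the plus strand of GRCm38 (GENCODE vM21).

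The snoRNP proteins were higher in TMREhi as a sum, 1182 against 818 CPM (1.44, 1.17–1.81), and all 7 that could be compared had ratios above 1. Fbl, the methyltransferase of box C/D snoRNPs, stood at 184 and 114. Its partners Nop56 and Nop58, the core of the same particle, had ratios of 1.71 (0.920–3.58) and 1.69 (1.03–2.97). Of the box H/ACA proteins, which guide pseudouridylation, Gar1 had the largest ratio at 2.23 (0.861–8.26) on 4 TMRElo UMIs, and the pseudouridine synthase Dkc1 had 1.20 (0.647–2.53). Nhp2, also of this particle, and Nolc1, a nucleolar chaperone of snoRNPs, had 1.32 (0.803–2.32) and 1.47 (0.812–2.96). Only the interval of Nop58 excluded 1.

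Assembly and processing factors of the nucleolus were the largest part of the module by UMIs. Npm1, a histone-binding chaperone that carries ribosomal subunits, reached 2301 CPM in TMREhi and 1094 in TMRElo, a ratio of 2.10 (1.75–2.55). Pa2g4, a growth-linked RNA-binding protein, stood at 413 and 190.3 (2.17, 1.40–3.56). For Ncl (nucleolin) the levels were 851 and 666 (1.28, 1.01–1.64). Ebna1bp2, of the large subunit pathway, had a ratio of 1.84 (0.835–5.05), and the nucleolar GTPase Gnl3 one of 1.10 (0.634–2.08). Wdr43 was the only member of this group below 1, at 0.748 (0.430–1.42).

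Among genes for polyamines, nucleotides, translation and transport, Ran stood at 1078 CPM in TMREhi and 561 in TMRElo (1.92, 1.48–2.53). Srm, spermidine synthase, stood at 129 and 57.1 (2.26, 1.03–6.20). Eif4a1 had a ratio of 1.46 (1.12–1.94). Odc1, ornithine decarboxylase, the entry enzyme of polyamine synthesis, had 1.58 (0.665–4.90) on 5 TMRElo UMIs. Nme1 stood at 209 and 209, a ratio of 0.998 (0.653–1.60) that passes to the other side of 1 under both other scalings (1.11 and 1.14). Reads of Nme1 may be split with Gm20390, a counted gene that overlaps it on the same strand, so its level is uncertain throughout.

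The amino acid members divided by role. The transporters summed to 407 CPM in TMREhi and 561 in TMRElo, which was 1.38-fold (1.04–1.79) higher in TMRElo. As TMREhi over TMRElo this is 0.725 (0.558–0.958), an interval that includes the median ratio of all genes compared, 0.872. Under scaling by the median gene the interval therefore holds 1. Slc1a5, a glutamine carrier, stood at 46.1 against 114 and was 2.48-fold (1.248–4.47) higher in TMRElo. The sodium-coupled neutral amino acid carriers Slc38a2 and Slc38a1, neighbours on chromosome 15, had ratios of 0.585 (0.363–1.0) and 0.821 (0.541–1.31). Slc3a2, the heavy chain shared by several transporters, had 1.24 (0.523–3.88). The enzymes went the other way, with 630.1 against 399.7 CPM (1.58, 1.16–2.20). Phgdh, which commits glycolytic carbon to serine, stood at 212 and 105 (2.03, 1.12–4.08). Psat1, the next enzyme, had a ratio of 2.21 (0.938–6.86), and the mitochondrial folate enzymes Mthfd2 and Shmt2 had 1.53 (0.735–3.85) and 1.09 (0.567–2.42).

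**Figure D1:**
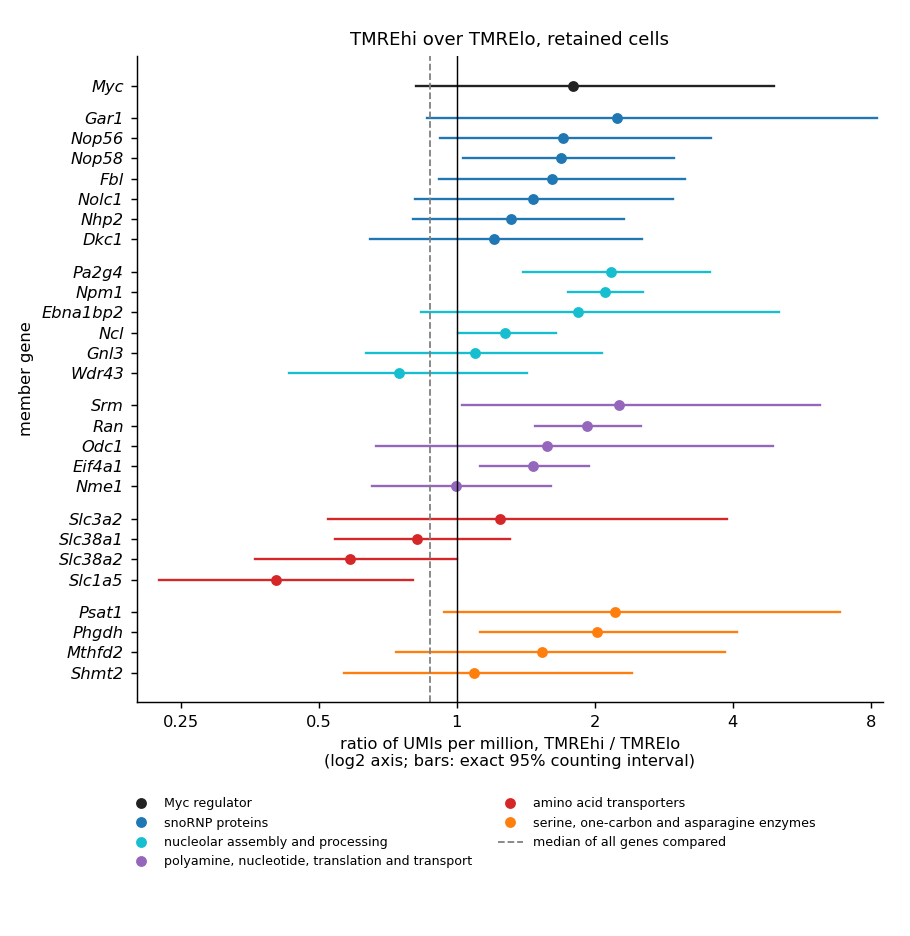
Ratio of CPM in TMREhi over TMRElo for the 27 members compared, on a log2 axis, with exact 95% counting intervals, coloured by role; the dashed line is the median of all genes compared. The intervals of Npm1, Pa2g4, Ran, Srm, Phgdh, Nop58, Eif4a1 and Ncl lie above 1, and that of Slc1a5 lies below it.

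The remaining 11 members were too low for a ratio. They were Rrp9, Nop16, Nop2, Rrs1, Polr1b, Cad, Slc7a5, Shmt1, Mthfd1, Psph and Asns, with 1 to 7 UMIs each in TMRElo. Asns, asparagine synthetase, was the lowest in TMREhi at 4.13 CPM.

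Cycling and the ribosomal share of the cells moved with this difference. Cycling cells, defined below, were 125 of 266 TMREhi cells and 4 of 15 TMRElo cells with at least 2000 UMIs. Among resting cells alone the ribosome biogenesis ratio was 1.06 (0.937–1.20, 141 against 11 cells), and among cycling cells 1.70 (1.46–1.98) with 4 TMRElo cells. High-ribosomal barcodes, also defined below, were 85.2% of retained TMREhi cells and 44.1% of TMRElo cells. The class ratios that follow used barcodes with at least 500 genes and no limit on mitochondrial UMIs, so they do not divide the retained cells. Within high-ribosomal barcodes, with no γ V UMI required, the ratio was 1.43 (1.31–1.58, 292 against 16 barcodes). Within low-ribosomal barcodes with a γ V transcript it was 1.501 (1.34–1.69) (425 against 92 barcodes). Median mitochondrial share in these low-ribosomal barcodes was 18.1% in TMREhi and 14.0% in TMRElo, above the 10% limit for retained cells. Neither class was equal in cycling between the libraries. The G2/M list stood at 1.62 (1.49–1.76) in the high and 2.71 (2.44–3.01) in the low class. The S phase list stood at 1.08 (0.966–1.21) and 1.91 (1.68–2.17). Of these low-class barcodes with at least 2000 UMIs, 117 of 159 were cycling in TMREhi and 0 of 3 in TMRElo. In the low-ribosomal barcodes Npm1 stood at 698 against 269.7 CPM (2.59, 1.78–3.90) and Ran at 290.2 against 83.7 (3.47, 1.80–7.68). The ratio of the serine and one-carbon enzymes was 1.27 (0.934–1.77) within the high class, which holds 1, and 2.38 (1.49–4.07) within the low class. The ratio of the transporters was 0.896 (0.649–1.27) within the high class and 0.955 (0.802–1.15) within the low class, both holding 1.

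Other genes of the same pathways, taken from lists of non-members, are given beside the members. Of 62 further ribosome biogenesis genes 28 could be compared, 5 higher and 3 lower by 1.5-fold, with a median log2 ratio of 0.06 and a summed ratio of 1.11 (1.01–1.22). Snu13, the RNA-binding protein shared by box C/D particles and the spliceosome, was among the higher at 461 and 171 CPM (2.69, 1.70–4.55). Translation factors had a summed ratio of 1.35 (1.252–1.46), aminoacyl-tRNA synthetases 1.29 (1.04–1.61), Myc network factors 0.706 (0.523–0.975), other amino acid supply genes 0.870 (0.726–1.05) and ATF4 stress targets 0.871 (0.589–1.34). Ribosomal protein genes, which are not members, stood at 1.38 (1.36–1.40), the S phase list at 1.27 (1.14–1.42) and the G2/M list at 1.85 (1.71–2.00).

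Within TMREhi, barcodes fell on both sides of a limit of 15% of UMIs from 84 ribosomal protein genes. The comparison used barcodes with at least 500 genes and at least 1 UMI of a γ chain V segment, 273 high-ribosomal (median 8745 UMIs) and 425 low-ribosomal (median 1693). Members divided sharply by role between these classes. The ribosome biogenesis members summed to 7679 CPM in high-ribosomal and 4329 in low-ribosomal barcodes (1.77, 1.71–1.84). The amino acid members summed to 1038 and 1679 and were 1.62-fold (1.52–1.73) higher in the low class. Of the 27 members compared, 11 were at least 1.5-fold higher in the high class, where 25.3% of all 3503 genes were, and 5 at least 1.5-fold lower, where 50.4% of all genes were. The median log2 ratio was 0.29 for members and -0.60 for all genes, so a scaling by the median gene moves every ratio up by that amount. Under that scaling the ribosome biogenesis ratio was 2.69 and the amino acid ratio 0.936.

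Among the 27 members compared, the ratio was above 3 in Nhp2, Nme1, Ran and Npm1. Nhp2 stood at 201 CPM in the high class and 46.5 in the low class (4.31, 3.11–6.16). Nme1 stood at 213 and 51.4 (4.13, 3.02–5.79). For Ran the levels were 1079.6 and 290.2 (3.72, 3.26–4.26), and for Npm1 2322 and 698 (3.33, 3.05–3.63). Srm, Gar1 and Pa2g4 had 2.77 (1.99–3.96), 1.90 (1.34–2.76) and 1.97 (1.67–2.32). Without Npm1, Ncl, Eif4a1 and Ran, the 4 members with most UMIs, the other 21 had a summed ratio of 1.29 (1.23–1.36).

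Members of 1 particle did not move together here. In box H/ACA, Nhp2 and Gar1 were higher in the high class while Dkc1 stood at 117 and 116 (1.01, 0.798–1.28). In box C/D, Nop58 had a ratio of 1.22 (1.03–1.45) and Fbl 1.16 (0.954–1.42), while Nop56 was 1.41-fold (1.18–1.67) higher in the low class, a direction that turned to 1.08 under scaling by the median gene. Gnl3 was 1.59-fold (1.33–1.90) higher in the low class, but its ratio of 0.628 went to 0.951 (0.796–1.14) under scaling by the median gene, which holds 1. Myc had 293 UMIs in the high class and 89 in the low class, 104 and 109 CPM, a ratio of 0.955 (0.751–1.23) that passes 1 under both other scalings (1.11 and 1.45). Odc1 stood at 74.6 and 91.8 (0.813, 0.621–1.07, and 1.23 under scaling by the median gene).

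All 4 transporters compared were lower in the high-ribosomal class, as were 2183 of all 3503 genes compared. As a sum of 5 genes they stood at 402 CPM against 1279.6 in the low class, 3.18-fold (2.92–3.46) higher in the latter. Slc38a1 had 492 UMIs from 273 high-ribosomal and 476 from 425 low-ribosomal barcodes, 175 and 583 CPM. Slc38a2 stood at 96.7 and 340.4 (3.52-fold, 2.97–4.18, higher in the low class). Slc1a5 was 2.99-fold (2.32–3.85) and Slc3a2 2.23-fold (1.74–2.85) higher there. Slc7a5, the light chain that pairs with Slc3a2 to import leucine, was under the level for a comparison, with 62 and 63 UMIs. The enzymes were again on the side of ribosome biogenesis, 635 against 399 CPM (1.59, 1.41–1.80), with Mthfd2 at 2.12 (1.51–3.05), Phgdh at 1.76 (1.42–2.20), Psat1 at 1.67 (1.24–2.29) and Shmt2 at 1.254 (0.949–1.68).

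**Figure D2:**
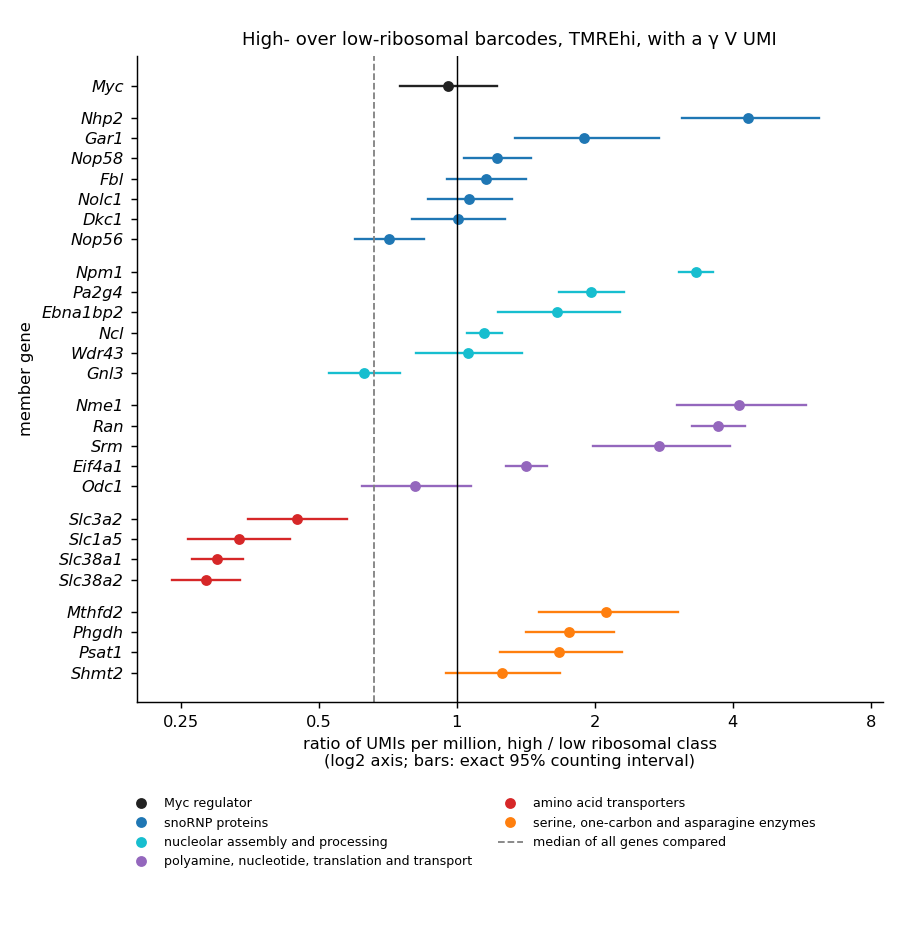
Ratio of CPM in high- over low-ribosomal TMREhi barcodes that carry a γ V transcript, for the 27 members compared, on a log2 axis with exact 95% counting intervals; the dashed line is the median of all genes compared. The 4 transporters lie left of the dashed line, and Nhp2, Nme1, Ran and Npm1 lie beyond 3.

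The classes differed in much else. Median mitochondrial share was 3.49% of UMIs in the high and 18.1% in the low class, mitochondrial genes as a sum stood at a ratio of 0.203 (0.201–0.204), and 46.2% and 73.6% of barcodes with at least 2000 UMIs were cycling. Myeloid markers had 4 UMIs in the high and 93 in the low class, 91.4% of the latter in 1 barcode. The part of these in the result was not tested, except as follows. Among barcodes with at most 10% mitochondrial UMIs (257 high, 10 low) the ratios were 1.69 (1.34–2.15) for ribosome biogenesis and 0.574 (0.399–0.858) for amino acid members. Among resting barcodes they were 1.29 (1.18–1.42) and 0.523 (0.442–0.621), and among cycling barcodes 1.53 (1.46–1.60) and 0.602 (0.552–0.658). Ncl turned to 0.727, 0.848 and 0.972 in these 3 settings from a ratio of 1.15 (1.05–1.26). In resting barcodes Gar1 turned to 0.917, Ebna1bp2 to 0.900 and Phgdh to 0.982, and at most 10% mitochondrial UMIs turned Psat1 to 0.873. The TMRElo library, with 14 high and 92 low barcodes, gave 1.81 (1.55–2.10) and 0.592 (0.440–0.791), Ran at 696 against 83.7 CPM and Slc38a1 at 105 against 567.

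Of 30 other ribosome biogenesis genes compared, 9 were higher and 7 lower by 1.5-fold, with a summed ratio of 1.08 (1.04–1.12) and a median ratio of 0.882, against 0.660 over all genes compared. Nop10, the third small protein of box H/ACA, stood at 571 and 122 CPM (4.66, 3.81–5.77), and Heatr1, a large scaffold of the small subunit processome, at 28.4 and 79.6 (0.357, 0.254–0.503). Other amino acid supply genes summed to 0.545 (0.512–0.581), with 7 of 11 lower by 1.5-fold. Myc network factors summed to 0.437 (0.391–0.488), aminoacyl-tRNA synthetases to 0.742 (0.694–0.794), ATF4 stress targets to 1.06 (0.890–1.26) and translation factors to 1.70 (1.65–1.76).

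Cycling state was read from the share of S phase and G2/M list transcripts, 97 genes none of which is a member. Each retained TMREhi cell with at least 2000 UMIs was thinned to 2000, and cells with at least 1% of these from the lists were called cycling, 125 against 141 resting. Cells lie along a range, with 34 within 0.25 percentage points of the limit. Both ribosome biogenesis and amino acid members were higher in cycling cells. Ribosome biogenesis members summed to 8795 CPM in cycling and 5794 in resting cells (1.52, 1.47–1.56), and amino acid members to 1157 and 809 (1.43, 1.32–1.55). Of 27 members compared, 25 were higher and 2 lower in cycling cells. At 1.5-fold 11 were higher, where 15.3% of all 2611 genes were, and none was lower, where 8.96% of all genes were. The median log2 ratio was 0.54 for members and 0.10 for all genes.

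Myc had 231 UMIs in cycling cells, 126 CPM, and 64 in resting cells, 62.6 CPM, a ratio of 2.01 (1.52–2.70). Nop56 stood at 199 and 99.7 (1.99, 1.59–2.51). Nolc1, Gar1 and Nop58 had ratios of 1.71 (1.37–2.14), 1.68 (1.254–2.29) and 1.499 (1.27–1.77). Ran reached 1310.2 against 707 CPM (1.85, 1.70–2.02), and Ncl 1001 against 604 (1.66, 1.51–1.82). Pa2g4 had a ratio of 1.68 (1.47–1.93), Gnl3 1.51 (1.21–1.91), Npm1 1.45 (1.37–1.53) and Eif4a1 1.44 (1.31–1.58). The polyamine enzymes were the exception: Srm stood at 133 and 127 (1.05, 0.843–1.31, and 0.979 and 0.976 under the other scalings) and Odc1 at 66.6 and 86.0 (0.774, 0.583–1.03).

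Serine pathway enzymes showed the larger ratios among amino acid members. Psat1 stood at 133 CPM in cycling and 60.6 in resting cells (2.20, 1.66–2.95), Phgdh at 258 and 138 (1.87, 1.54–2.27) and Shmt2 at 111 and 64.5 (1.72, 1.29–2.30). Mthfd2 had a ratio of 1.44 (1.11–1.89). The transporters as a sum were at 1.14 (1.003–1.29), with Slc38a1 at 1.35 (1.11–1.65) and Slc3a2 at 0.850 (0.618–1.17). The interval of the transporter sum includes the median ratio of all genes compared, 1.07. Under scaling by the median gene it therefore holds 1.

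The module did not follow the cycle share in a straight line. In 5 bins of cells from under 0.25% to at least 2% cycle transcripts (52, 46, 43, 63 and 62 cells), the ribosome biogenesis members stood at 4294, 4074, 7779, 10126 and 7556 CPM. The step between the second and the third bin lies within the resting class, and the highest bin is below the one before it. The amino acid members stood at 588, 653, 1045, 1223 and 1096, and Myc at 26.3, 99.4, 65.7, 173 and 82.2. Median depth went from 5390.5 UMIs per cell in the lowest bin to 15446.5 in the highest. With a limit of 2% in place of 1%, the ribosome biogenesis ratio therefore turned to 0.969 (0.942–0.996) and that of Myc to 0.722. Ribosomal protein genes stood at 360339 CPM in the lowest bin and 293302 in the highest.

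**Figure D3:**
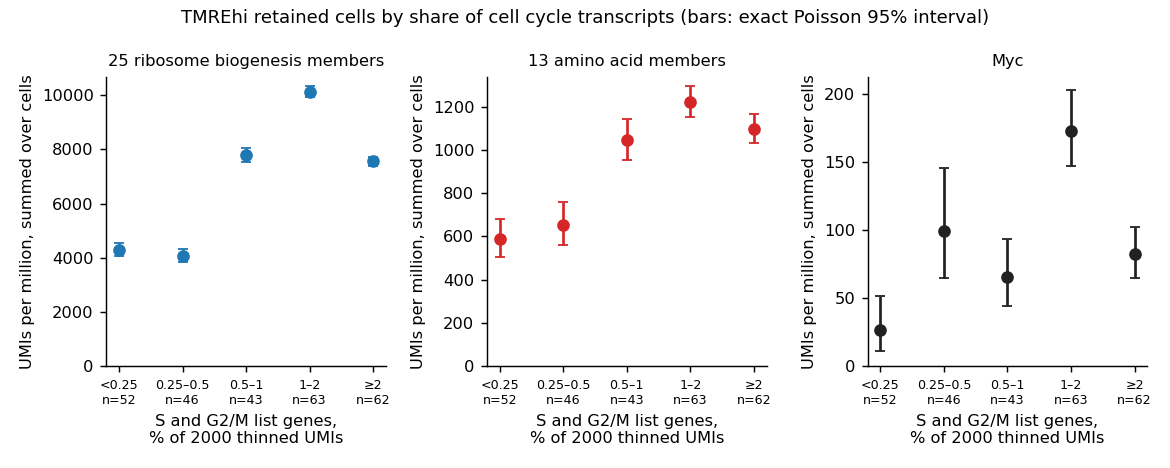
Summed CPM of the ribosome biogenesis members, the amino acid members and Myc in 5 bins of TMREhi cells by their share of S phase and G2/M transcripts, with exact Poisson 95% intervals; axes start at 0. Ribosome biogenesis members peak at 10126 CPM in the bin from 1 to 2% and stand at 7556 in the bin above it.

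Cycling cells were also divided by the list with more thinned UMIs, 25 with the S phase list ahead and 96 with the G2/M list ahead. Before thinning, the G2/M list held 28613 UMIs in cycling cells and the S phase list 9161, so this split leans to G2/M. Phases scored by scanpy placed 45 of the cycling cells in S and 80 in G2/M. Ratios of single members across those phases were not computed. Myc stood at 197 CPM in the first and 116 in the second (1.70, 1.24–2.30). Gnl3 had 260.1 and 133 (1.95, 1.48–2.55), Nolc1 1.80 (1.39–2.31) and Srm 1.76 (1.29–2.38), while Gar1 went the other way at 0.518 (0.295–0.855) and Ran stood at 0.884 (0.787–0.990). The 25 ribosome biogenesis members as a sum had 1.10 (1.06–1.15), the 21 without the largest 4 had 1.31 (1.23–1.40), and the amino acid members had 0.979 (0.869–1.10).

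Myeloid markers had 2 UMIs in cycling and 304 in resting cells, 60.9% of the latter in 1 cell, and αβ lineage markers stood at 325 and 207 CPM. With a γ V UMI required, which leaves 117 and 136 cells, the ratios were 1.49 (1.45–1.54) and 1.41 (1.302–1.53). Of 27 other ribosome biogenesis genes compared, 22 were higher and 5 lower, and 3 were at least 1.5-fold higher: Lyar (2.06, 1.58–2.73), Tcof1 (1.83, 1.44–2.33) and Snu13 (1.73, 1.52–1.96). Their list as a whole had a ratio of 1.19 (1.14–1.23), aminoacyl-tRNA synthetases 1.27 (1.18–1.38), translation factors 1.08 (1.06–1.11), other amino acid supply genes 1.06 (0.979–1.14), Myc network factors 1.05 (0.909–1.22) and ATF4 stress targets 0.837 (0.710–0.988).

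**Figure D4:**
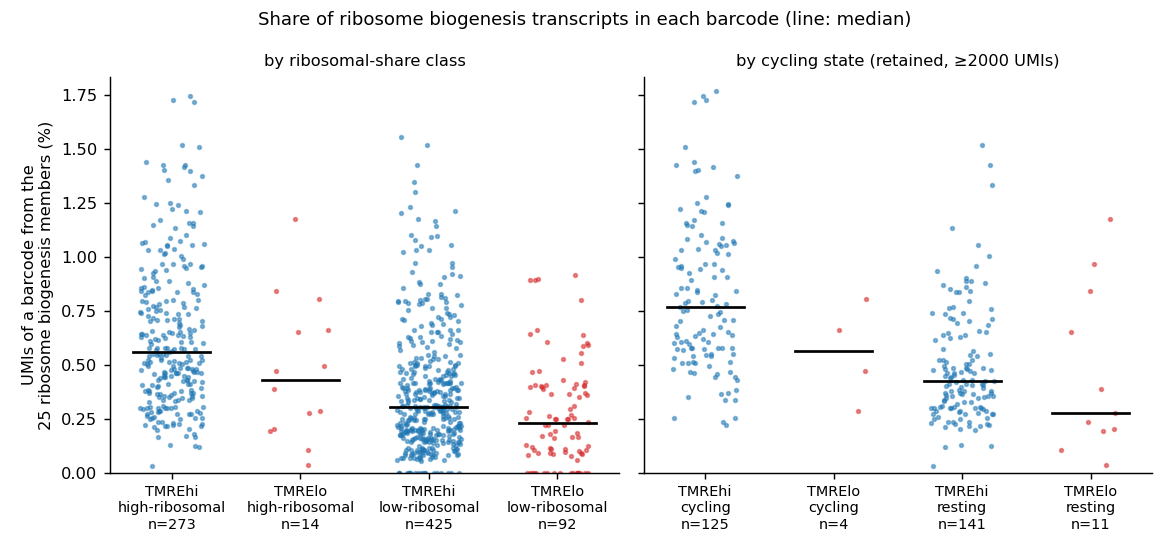
Percent of each barcode's UMIs that come from the 25 ribosome biogenesis members, by ribosomal class for barcodes with a γ V transcript (left) and by cycling state for retained cells (right); points are barcodes and lines are medians. Medians in TMREhi are 0.560% and 0.304% in high- and low-ribosomal barcodes and 0.766% and 0.423% in cycling and resting cells, with wide overlap.

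Single cells overlapped widely in all of these groups. In retained TMREhi cells the ribosome biogenesis members took a median of 0.508% of a cell's UMIs (0 to 1.77%), and in TMRElo 0.249% (0 to 1.18%). Cycling TMREhi cells ranged from 0.219 to 1.77% and resting ones from 0.033 to 1.52%. Shares in TMRElo rest on few UMIs per cell, and 6 of its 34 cells had no member UMI of this kind.

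Retained TMREhi cells were grouped by the γ chain V segment with most UMIs. The Vγ1 family led in 172 cells (median 10803.5 UMIs) and Vγ6, the segment of a fetal wave known to make interleukin 17, in 41 (median 4856). Vγ4 led in 13 and Vγ5 in 7. Both ribosome biogenesis and amino acid members were lower in Vγ6-led than in Vγ1-family-led cells. Ribosome biogenesis members summed to 4786 CPM in Vγ6-led and 8034 in Vγ1-family-led cells, which was 1.68-fold (1.58–1.79) higher in the latter. Amino acid members summed to 706 and 1086, 1.54-fold (1.31–1.82) higher in the latter. Of 28 members compared, 24 were lower and 4 higher in Vγ6-led cells. At 1.5-fold 18 were lower, where 24% of all 2638 genes were, and 2 were higher, where 18.2% of all genes were. The median log2 ratio was -0.81 for members and -0.08 for all genes.

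Vγ4-led cells stood between these at 6916 CPM for the ribosome biogenesis members, on 870 UMIs. Vγ5-led cells stood at 5512 on 313 UMIs, 67.7% of them from 1 cell. The median share of a cell's UMIs was 0.227% in Vγ5-led, 0.364% in Vγ6-led, 0.568% in Vγ4-led and 0.607% in Vγ1-family-led cells, so the place of Vγ5-led cells in the order was not read. Cells with no γ V UMI, 50 in number, stood at 6222, and their αβ lineage markers were at 2311 CPM against 246 in Vγ1-family-led cells. These cells also held 306 myeloid marker UMIs.

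Odc1 had the highest ratio of the 28 members and was the only one higher in Vγ6-led cells whose interval left out 1. It had 63 UMIs in 41 Vγ6-led cells, 283 CPM, and 110 in 172 Vγ1-family-led cells, 52.9 CPM, a ratio of 5.36 (3.87–7.37). Vγ4-led cells stood at 39.7 and Vγ5-led cells at 52.8 CPM on 5 and 3 UMIs. No Vγ6-led cell held more than 15.9% of the Odc1 UMIs. A UMI was seen in 26 of 41 Vγ6-led cells and in 64 of the 172 deeper Vγ1-family-led cells. A cell type that lacks Odc1, which would give the share from free RNA, was not measured. Odc1 lies at chr12:17544794-17551505 on the plus strand of GRCm38, and its RefSeq promoter window held no CACGTG.

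The Odc1 difference was present within each cycling state and class. In resting cells the levels were 240.2 and 53.1 CPM (4.52, 2.77–7.42, 32 against 77 cells). In cycling cells they were 401 and 52.2 (7.68, 4.55–12.5), with 5 Vγ6-led cells of which 1 held 45.5% of the UMIs. Low-ribosomal barcodes, which share no barcode with the high class, gave 196 and 72.5 (2.70, 1.39–5.11, 56 against 180 barcodes). Over all other settings tried, which reuse cells of the main comparison, the ratio lay between 4.56 and 5.67. The next polyamine enzyme, Srm, did not follow, at 103 and 133 (0.777, 0.484–1.19).

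Among the ribosome biogenesis members that were lower in Vγ6-led cells, Npm1 stood at 1327 against 2431 CPM (1.83-fold, 1.63–2.07, higher in Vγ1-family-led cells). Ran stood at 539.8 against 1147 (2.12-fold, 1.77–2.57) and Pa2g4 at 175 against 440.3 (2.51-fold, 1.82–3.55). Of the snoRNP proteins Gar1 had 6 UMIs in Vγ6-led cells and was 3.37-fold (1.52–9.29) higher in Vγ1-family-led cells, Nop56 2.30-fold (1.40–4.08) and Nop58 2.26-fold (1.53–3.45), while Nolc1 stood at 148 and 158 (0.941, 0.637–1.35). Myc stood at 58.5 (13 UMIs) against 112 (234 UMIs), 1.92-fold (1.10–3.67) higher in Vγ1-family-led cells. Gnl3 had a ratio of 1.11 (0.747–1.59) and Wdr43 0.893 (0.527–1.43).

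Enzymes and transporters parted here too. The serine and one-carbon enzymes stood at 297 in Vγ6-led and 685 CPM in Vγ1-family-led cells, 2.31-fold (1.80–2.998) higher in the latter. Phgdh had 81.0 and 227 (2.81-fold, 1.76–4.78), Psat1 45.0 and 122 (2.70-fold, 1.45–5.71) and Mthfd2 45.0 and 113 (2.52-fold, 1.35–5.33). The transporters stood at 409 and 401 (1.02, 0.812–1.27). Slc1a5 and Slc38a1 had ratios of 1.58 (0.866–2.69) and 1.33 (0.965–1.79), and Slc38a2 0.593 (0.311–1.04).

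**Figure D5:**
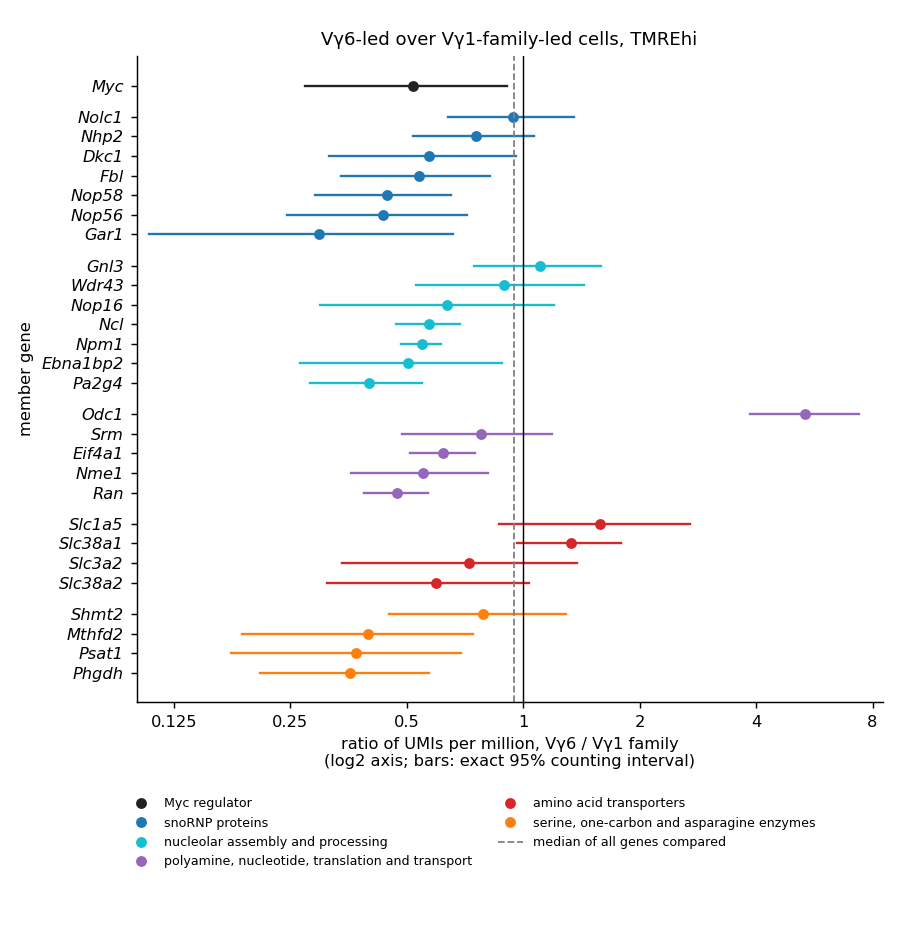
Ratio of CPM in Vγ6-led over Vγ1-family-led TMREhi cells for the 28 members compared, on a log2 axis with exact 95% counting intervals; the dashed line is the median of all genes compared. Odc1 lies alone at 5.36, and 24 members lie below 1.

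Cycling moved with this comparison: 13.5% of Vγ6-led and 54.4% of Vγ1-family-led cells with at least 2000 UMIs were cycling, and 20 of 22 S phase and 30 of 33 G2/M list genes compared were at least 1.5-fold lower in Vγ6-led cells. Within resting cells the ribosome biogenesis ratio was 0.681 (0.626–0.740), with Npm1 at 1170.2 against 1962 CPM and Pa2g4 at 129 against 319, and the amino acid ratio was 0.758 (0.607–0.938). Resting cells of the 2 segments were not equal in cycle transcripts. Of the list genes compared there, 10 of 13 S phase and 8 of 12 G2/M genes were at least 1.5-fold lower in Vγ6-led cells. Of all 2566 genes compared there, 470 were. Within cycling cells the ribosome biogenesis and amino acid ratios were 0.783 (0.706–0.867) and 0.673 (0.488–0.908), on 5 Vγ6-led cells. In low-ribosomal barcodes they were 0.757 (0.671–0.851) and 0.895 (0.739–1.08), the second holding 1. Ribosomal protein genes did not share the direction and stood at 1.09 (1.08–1.10). The B cell marker Cd79b had 16 UMIs in Vγ6-led and 30 in Vγ1-family-led cells, all the UMIs of the B cell list. In CPM that list was higher in Vγ6-led cells, at 72.0 against 14.4 (4.99, 2.54–9.45). Cd79a, Ms4a1 and Pax5 were at 0 in both, and myeloid markers were at 0 and 2 UMIs. The αβ lineage list had 18 and 511 UMIs, which is 81.0 and 246 CPM (0.330, 0.194–0.526).

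Of 26 other ribosome biogenesis genes compared, 20 were lower in Vγ6-led cells, 8 of them by 1.5-fold, and 6 were higher, 1 of them by 1.5-fold, with a summed ratio of 0.796 (0.741–0.854). Lyar, a nucleolar growth factor, stood at 31.5 and 119 CPM and Tcof1, which supports ribosomal RNA transcription, at 45.0 and 154. Of the Myc network, Mxd4, a partner of Max that opposes Myc, was higher in Vγ6-led cells at 99.0 against 36.5 (2.71, 1.60–4.40). Eif4ebp1, an ATF4 target that restrains cap-dependent translation, was also higher at 108 against 37.98 (2.84, 1.72–4.54). Aminoacyl-tRNA synthetases summed to 0.700 (0.596–0.817), translation factors to 0.843 (0.802–0.886) and other amino acid supply genes to 0.895 (0.769–1.04). Myc network factors summed to 1.08 (0.834–1.39) and ATF4 stress targets to 1.297 (0.985–1.68), both holding 1, and Atf4 itself had a ratio of 0.751 (0.412–1.27).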

How the data were processed

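Per the file headers, the deposited files hold raw UMI counts per gene and barcode from Cell Ranger 3.0.2. Build mm10 and Cell Ranger 3.0 are named per the submitters' processing notes. No annotation release is given in the sources used here. The authors deposited 1202 TMREhi and 196 TMRElo barcodes; a γ V UMI was required where stated. The members and lists were chosen with earlier results of these data known. All 38 members were accounted for. Ratios were printed where the mean of a member reached 50 CPM, and up to 3 genes of each other list with the largest ratios were open to naming. Promoters were shown for at most 4 members holding CACGTG, by ratio between ribosomal classes. The listed symbols Miz1, Mars1 and Tcrg-V2 were not matched. Vγ1 family means Trgv2, Tcrg-V1 or Tcrg-V3 leading, and ties were left out. The fold was 1.5. Levels carry exact Poisson and ratios exact conditional binomial 95% intervals. Scrublet called 13 of 317 TMREhi and 10 of 34 TMRElo cells doublets, which were kept. The TMRElo cells are too few for its calls to be reliable. Thinning used seed 1. Marker lists covered γδ, αβ lineage, B, myeloid, erythroid and thymic epithelial cells. Erythroid markers were at 0 in both libraries, and thymic epithelium markers had 53 and 5 UMIs, all from Epcam. Python 3.11.15, numpy 2.4.6, pandas 2.3.3, scipy 1.17.1, scanpy 1.11.5 and matplotlib 3.10.9 were used, and the scripts were tested on simulated data.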

Additional observations from a re-analysis of the deposited data

How the results depend on the processing

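The TMREhi over TMRElo ratio of ribosome biogenesis members (1.63) was above 1 in the settings tried, but in resting cells it was 1.06 (0.937–1.20), an interval that holds 1. It was 1.85 over all deposited barcodes, 1.45 with at least 1000 genes and at most 5% mitochondrial UMIs (9 TMRElo cells) and 1.94 without the 5 deepest cells of each library. Without called doublets it was 2.18 (24 TMRElo cells), a setting that rests on unreliable calls in TMRElo. Scaling to UMIs neither ribosomal protein nor mitochondrial gave 1.82, median of ratios scaling 1.87, the mean over cells 1.81 and thinned cells 1.29. High-ribosomal barcodes, with no limit on mitochondrial UMIs, gave 1.43, and the sum without Npm1, Ncl, Eif4a1 and Ran 1.44. The amino acid ratio (1.08) was 0.883 in resting cells and 1.24 (1.01–1.52) under median of ratios scaling, an interval above 1. With a floor of 100 CPM 17 members could be compared, 7 higher and 1 lower by the fold. With a fold of 2, 6 of 27 members were higher and 1 lower. The share of all genes was not counted at these 2 settings, so the counts have no background beside them. In resting cells Nop58 turned to 0.805 and Ncl to 0.825, and in cycling cells Slc1a5 turned to 1.36.

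Between ribosomal classes the ribosome biogenesis ratio (1.77) was 1.88 at a limit of 10%, 2.06 scaled to UMIs neither ribosomal protein nor mitochondrial, 2.69 under median of ratios scaling, 1.68 with no γ V UMI required, 1.69 at no more than 10% mitochondrial UMIs and 1.69 as a mean over cells. It was 1.29 in resting barcodes, 1.53 in cycling barcodes and 1.29 without the 4 most abundant members. The amino acid ratio (0.618) was 0.719 and 0.936 under the same 2 scalings, 0.574 at no more than 10% mitochondrial UMIs and 0.523 in resting barcodes. Nop56 turned to 1.08 under median of ratios scaling and Nop58 to 0.9703 in TMRElo. Resting barcodes turned Gar1 to 0.917, Ncl to 0.848, Ebna1bp2 to 0.900 and Phgdh to 0.982. Ncl was 0.972 in cycling barcodes, and at no more than 10% mitochondrial UMIs Ncl was 0.727 and Psat1 0.873.

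Between cycling states the ribosome biogenesis ratio (1.52) was 2.05 at a limit of 0.5%, 0.969 at 2%, 1.89 by scanpy phases, 1.42 and 1.41 under the other scalings, 1.67 as a mean over cells, 1.64 for cells with the S list ahead and 1.44 without the 4 most abundant members. The amino acid ratio (1.43) was 1.84 at 0.5%, 1.10 at 2%, 1.76 by phases and 1.62 as a mean over cells. At 2%, where the cells between 1 and 2% join the resting class, Myc turned to 0.722, Nop56 to 0.728, Nop58 to 0.794, Nolc1 to 0.578, Dkc1 to 0.768, Nhp2 to 0.798, Ncl to 0.955, Wdr43 to 0.799, Gnl3 to 0.510, Pa2g4 to 0.969 and Nme1 to 0.977. Gar1 turned to 0.951 with the S list ahead.

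Between leading γ V segments the ribosome biogenesis ratio (0.596) was 0.681 in resting cells, 0.783 in cycling cells, 0.757 in low-ribosomal barcodes and 0.694 without the 4 most abundant members. The amino acid ratio (0.650) was 0.793 over all barcodes with at least 500 genes, 0.803 as a mean over cells and 0.895 in low-ribosomal barcodes, where Dkc1 turned to 1.13 and Pa2g4 to 1.03. Where no other cause is named above, the cause was not tested. Single members stayed on their side of 1 in 327 of 374 values between libraries, 231 of 263 between classes, 252 of 270 between cycling states and 265 of 280 between segments. Between leading γ V segments, low-ribosomal barcodes, median of ratios scaling and segments summed by family were settings chosen after seeing the data. So was the list that leads in cycling cells. Median of ratios scaling was a planned setting in the other comparisons, as were low-ribosomal barcodes between libraries. The depth of TMRElo, where 3 UMIs equal 28.5 CPM, limits every value against it. No paired analysis was possible because each group is 1 library.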
